A study of Mus musculus with 2 samples.

Results

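Promoter peaks of Isl1 were taken from the ChIP-Seq of dissected cardiogenic regions of mouse embryos. They were the peaks of the deposited list whose midpoint lay within 1 kb of a transcription start site (TSS), on either side, and whose closest transcript carried a RefSeq number for a protein-coding mRNA. Of the 48295 peaks in the list, 1112 (2.30%) met this rule, and they were assigned to 1089 genes. A further 133 peaks lay within 1 kb of the TSS of a noncoding transcript and were left out. The samples described here were 1 Isl1 ChIP sample and 1 input sample of C57BL/6 embryos at E8.25 to E9. For them the material of 60 to 80 embryos was pooled. Other sequencing of the study, including that of Isl1 knockout embryos, was not used. The labels of the ChIP and input samples name no allele or treatment, so there was no control genotype among them to compare with. Chromatin was fixed with 1% formaldehyde for 15 min and precipitated with a monoclonal antibody to Isl1. The peak list was deposited under the ChIP sample, and whether it joins the calls of replicate experiments could not be settled. The signal of the input was not analysed here. With 1 list there was no replicate to test against, so each share below is given with its 95% Wilson interval, which covers counting error over peaks or genes only. The list holds no peak height, p-value or read number, and the depth behind each peak is unknown.

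Isl1 is a LIM-homeodomain transcription factor that marks the second heart field, the progenitors that build the outflow tract, the right ventricle and much of the atria. Homeodomain factors of this class recognize short sequences with a TAAT core and act together with Ldb cofactors, often from enhancers that lie far from the genes they control. Promoters fall into a class with CpG islands, which serves most housekeeping and developmental genes, and a class without them, which serves many tissue-specific genes. The 1112 promoter peaks are described here by their position, their width, the sequence beneath them and the genes they belong to.

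The promoter peaks fell into 2 classes by the sequence at their midpoint. In the first, 521 peaks (46.9%, interval 43.9 to 49.8%) had a stretch of 25 or more bases, all purines or all pyrimidines, starting and ending no more than 100 bp from the midpoint. Such an unbroken stretch is called a run below. A CG dinucleotide joins a pyrimidine to a purine and so ends any run, which makes runs and CpG-rich sequence partly exclusive by definition. In the second, 591 peaks held no such run, and 568 of these (96.1%, interval 94.2 to 97.4%) lay in CpG-rich sequence, defined as a GC content of at least 50% and a ratio of observed to expected CpG of at least 0.6 over 500 bp. The sequences below show 120 bp around the midpoint of named promoter peaks, on the strand of the gene. All lie upstream of the TSS and outside every annotated exon of the mm9 genome. The first 4 hold a run, printed in capitals, and were chosen to show the runs at genes of heart development and cardiac muscle.
Shox2, a homeobox gene of the sinus node, chr3:66785995-66786114, minus strand: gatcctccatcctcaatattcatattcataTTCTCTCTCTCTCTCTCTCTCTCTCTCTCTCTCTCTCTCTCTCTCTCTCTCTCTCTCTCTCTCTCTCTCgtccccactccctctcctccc
Cacnb2, a subunit of the L-type calcium channel, chr2:14524915-14525034, plus strand: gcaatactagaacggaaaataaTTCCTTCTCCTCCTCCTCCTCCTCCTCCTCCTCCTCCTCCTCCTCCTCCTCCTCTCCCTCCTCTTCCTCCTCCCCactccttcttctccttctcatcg
Csrp3, a protein of the muscle Z-disc, chr7:56104197-56104316, minus strand: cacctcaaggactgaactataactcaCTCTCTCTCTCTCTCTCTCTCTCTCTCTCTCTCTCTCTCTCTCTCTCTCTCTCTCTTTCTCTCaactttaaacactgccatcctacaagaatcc
Gas1, a co-receptor of Hedgehog ligands, chr13:60279506-60279625, minus strand: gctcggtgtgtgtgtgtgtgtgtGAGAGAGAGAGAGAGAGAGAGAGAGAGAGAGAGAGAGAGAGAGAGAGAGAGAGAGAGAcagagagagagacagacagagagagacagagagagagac
The runs of Shox2, Csrp3 and Gas1 are built from repeated CT or GA units, and that of Cacnb2 mostly from CCT units. Their uninterrupted lengths were 69 bp at Shox2, 75 bp at Cacnb2, 63 bp at Csrp3 and 58 bp at Gas1.

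The second set shows promoter peaks without a run, with each CG dinucleotide in capitals, at regulators and a calcium pump of the heart.
Hey1, a Notch effector, chr3:8667300-8667419, minus strand: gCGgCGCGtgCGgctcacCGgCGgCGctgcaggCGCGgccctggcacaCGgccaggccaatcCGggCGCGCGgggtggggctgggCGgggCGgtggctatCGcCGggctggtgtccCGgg
Atp2a2, the calcium pump of the sarcoplasmic reticulum, chr5:122952285-122952404, minus strand: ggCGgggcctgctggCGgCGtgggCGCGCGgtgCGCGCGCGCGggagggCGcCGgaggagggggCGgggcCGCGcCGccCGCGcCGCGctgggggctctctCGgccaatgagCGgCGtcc
Arid2, a SWI/SNF subunit, chr15:96117518-96117637, plus strand: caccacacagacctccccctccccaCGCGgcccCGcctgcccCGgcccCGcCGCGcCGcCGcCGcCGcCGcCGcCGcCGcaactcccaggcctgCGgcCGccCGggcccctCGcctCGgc
The windows held 19 CG dinucleotides at Hey1, 24 at Atp2a2 and 20 at Arid2. Their GC content was 82.5% at Hey1, 86.7% at Atp2a2 and 86.7% at Arid2. The windows with a run lay lower, at 49.2% for Shox2, 55% for Cacnb2, 45% for Csrp3 and 51.7% for Gas1.

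The mixture of both classes set promoter peaks apart from the rest of the list. Among the 5618 peaks that lay 1 to 10 kb from a protein-coding TSS, 94.7% held a run (interval 94.1 to 95.2%), and among the 32529 peaks beyond 10 kb the share was 95.3% (interval 95.1 to 95.6%). The share at promoters was lower by 47.8 percentage points than at 1 to 10 kb (interval of the difference, from -50.8 to -44.8). CpG-rich sequence showed the opposite order. It held 602 of the promoter peaks (54.1%, interval 51.2 to 57.1%) but 0.979% of the peaks at 1 to 10 kb and 0.538% of those beyond 10 kb. CpG-rich sequence is common at promoters with or without a peak. By the same definition around the TSS, 10717 of all 22164 protein-coding promoters were CpG-rich. Promoter peaks, which made up 2.30% of all peaks, held 66.7% of the 903 peaks in CpG-rich sequence and 1.15% of the 45440 peaks with a run. The median GC content over 500 bp was 73% for promoter peaks, 46.6% at 1 to 10 kb and 45.4% beyond 10 kb. The 2 classes hardly overlapped in GC, in part by definition, since CG dinucleotides end a run. The quartiles of the runless promoter peaks were 77.8 and 81.5%, and those of the promoter peaks with a run 44.6 and 52.8%. Of the promoter peaks, 34 had both a run and CpG-rich sequence. The 133 peaks near noncoding TSSs were closer to the distal peaks, with a run in 81.2% (interval 73.7 to 86.9%) and CpG-rich sequence in 11.3%.

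Position relative to the TSS differed between the classes. Of all promoter peaks, 542 lay upstream of the TSS (48.7%, interval 45.8 to 51.7%) and 570 downstream. Of the peaks with a run, 349 of 521 lay upstream (67.0%, interval 62.8 to 70.9%), against 193 of 591 without a run (32.7%, interval 29.0 to 36.5%), a difference of 34.3 percentage points (interval 28.7 to 39.7). The median distance to the TSS, regardless of side, was 604 bp with a run and 174 bp without. The peak interval spanned the TSS itself at 396 runless peaks (67.0%) and at 73 peaks with a run (14.0%). In bins of 100 bp, the most peaks were found from the TSS to 100 bp downstream, with 117 peaks, and in the next bin, with 116. Runless peaks made up 109 and 106 of these. Peaks with a run were fewest in the same bins, with 8 and 10, and numbered 48 at 900 to 800 bp upstream. Runless peaks were thus densest over the start of the gene and peaks with a run on its flanks. The distances used the RefSeq TSSs of the deposited list. For 1034 peaks the strand of the gene was found by its name in the GENCODE annotation of mm9, and the TSS implied by the listed distance lay within 100 bp of a GENCODE TSS for 935 of them.

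**Figure D1:**
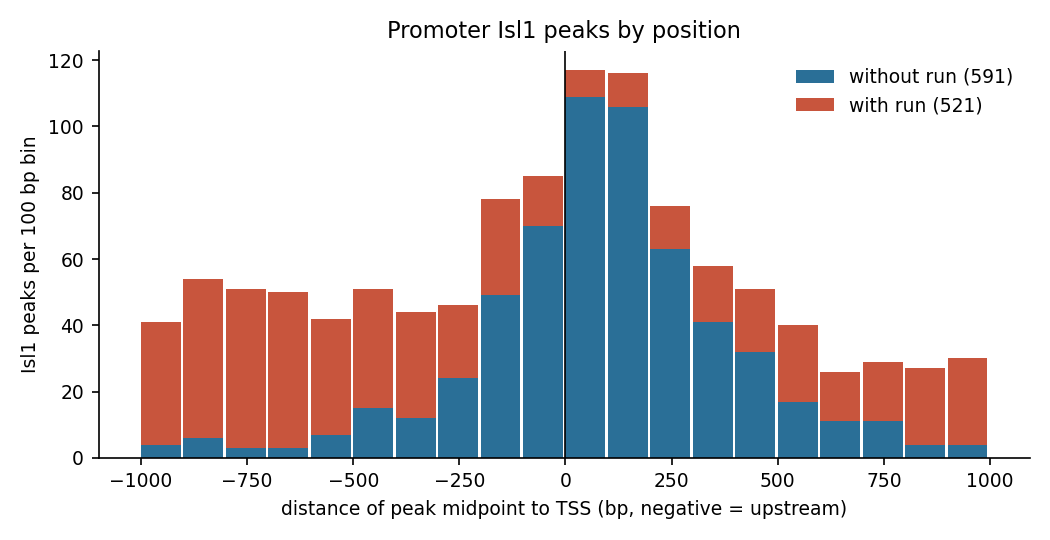
Number of promoter Isl1 peaks (vertical axis) in bins of 100 bp by the distance of the peak midpoint to the TSS (horizontal axis, in bp, negative values upstream), stacked for 591 peaks without a run (blue) and 521 with one (red). Runless peaks gather in the 2 bins after the TSS, where 109 and 106 are found, while peaks with a run are fewest there, with 8 and 10.

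Over a wider span, the rise at the TSS was seen in runless peaks. Between 2 and 1 kb upstream there were 27 runless peaks, in the upstream kilobase 193, in the downstream kilobase 398, and between 1 and 2 kb downstream 13. Peaks with a run numbered 378, 349, 172 and 257 over the same 4 intervals, so they were not more frequent next to the TSS than further out. By annotation, 237 of the runless promoter peaks (40.1%, interval 36.2 to 44.1%) had their midpoint in a UTR and 76 (12.9%) in another exon. Of those with a run, 24 (4.61%) lay in a UTR and 9 (1.73%) in another exon, whereas 259 (49.7%) were intergenic and 229 (44.0%) lay in an intron of an annotated transcript, alternative transcripts included. Of the promoter peaks, 30 (2.70%) lay within 1 kb of the TSSs of 2 genes transcribed from opposite strands. The share of such places among all promoters was not counted, so this value cannot be called low or high.

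Widths overlapped more than GC did. The promoter peaks had a median width of 490 bp and ranged from 197 to 1326 bp, against a median of 466 bp over all peaks. The median was 526 bp for runless promoter peaks and 456 bp for those with a run, where the peaks with a run at 1 to 10 kb had a median of 460 bp. Runless peaks were wider than peaks with a run away from promoters too, with a median of 579 bp at 1 to 10 kb. They are not the same class there, since 260 of these 299 peaks were not CpG-rich either, against 23 of 591 at promoters. The search reached only 100 bp from the midpoint, so a run elsewhere in a wide peak was not counted. The widest promoter peak spanned 1326 bp at Taf4, a subunit of the general transcription factor TFIID, with its midpoint 428 bp downstream of the TSS at a GC content of 84.8%. It was followed by the peak of the zinc finger gene Zfp777, 1299 bp wide at 86.2% GC. Of the 10 widest, 7 were runless and CpG-rich: those of Taf4, Zfp777, Zxdb, Fam19a5, Pds5a, Furin and Rybp. The other 3 were those of Tnfrsf26, Emp2 and Nfix.

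**Figure D2:**
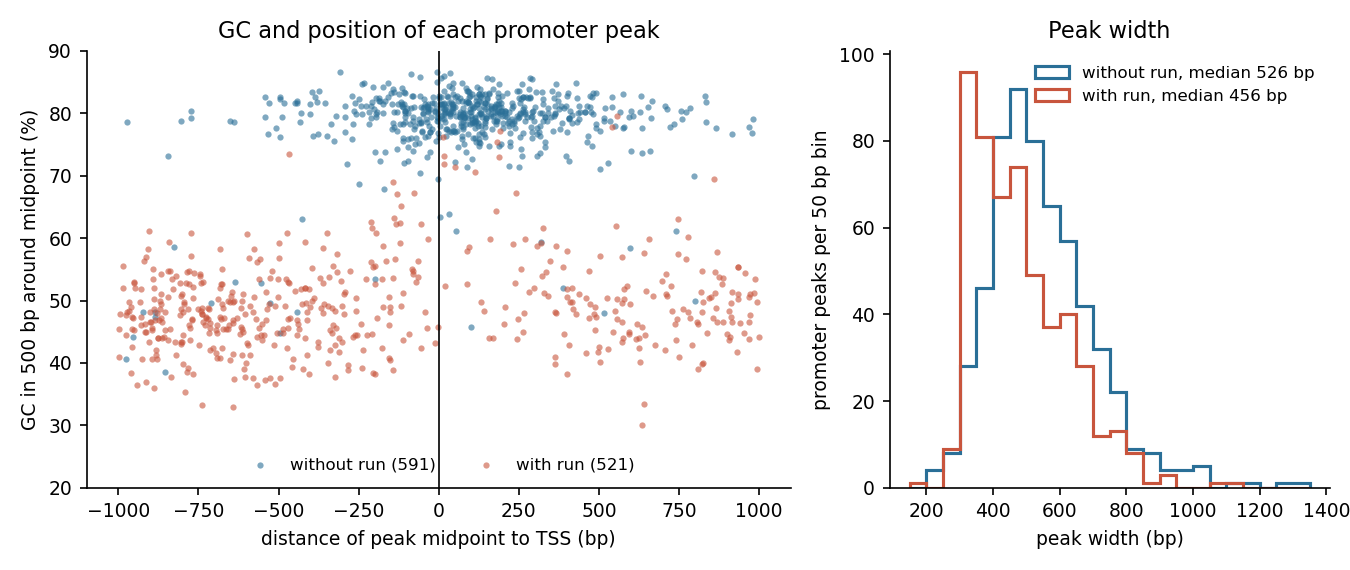
Left, GC content over 500 bp around the midpoint (vertical axis, in %) against the distance of the midpoint to the TSS (horizontal axis, in bp) for each of the 1112 promoter peaks, without a run in blue and with a run in red. Right, number of promoter peaks in bins of 50 bp of peak width for the same classes. The runless peaks form a band near 80% GC around the TSS, the peaks with a run a broad cloud near 50% GC, and their widths overlap with medians of 526 and 456 bp.

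How often a promoter held a runless peak followed its GC content. This comparison took the most upstream protein-coding TSS of each GENCODE gene, 22164 promoters in all, measured GC over 250 bp to either side of it, and counted any peak midpoint within 1 kb. Below 40% GC, 1 of 1692 promoters had a runless peak. From 60 to 65% GC the share was 0.694% (interval 0.471 to 1.02%), from 70 to 75% it was 5.38% (4.45 to 6.49%), from 75 to 80% it was 25.8% (22.8 to 28.9%), and at 80% or above 110 of 163 promoters had one (67.5%, 60.0 to 74.2%). Peaks with a run went the other way at high GC. They were found at 3.68% of promoters with 40 to 45% GC (2.91 to 4.63%) and at 1.25% of promoters with 75 to 80% GC (0.680 to 2.29%). The number of runs present at each step of GC was not set beside these shares. Being CpG-rich was not by itself accompanied by a peak, since of 10717 CpG-rich promoters 519 had a runless peak (4.84%, 4.45 to 5.27%). The CpG-rich promoters with no peak of either class had a median GC content of 64.8%, against 76% for promoters with a runless peak. The steps of GC were chosen after the values had been seen.

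**Figure D3:**
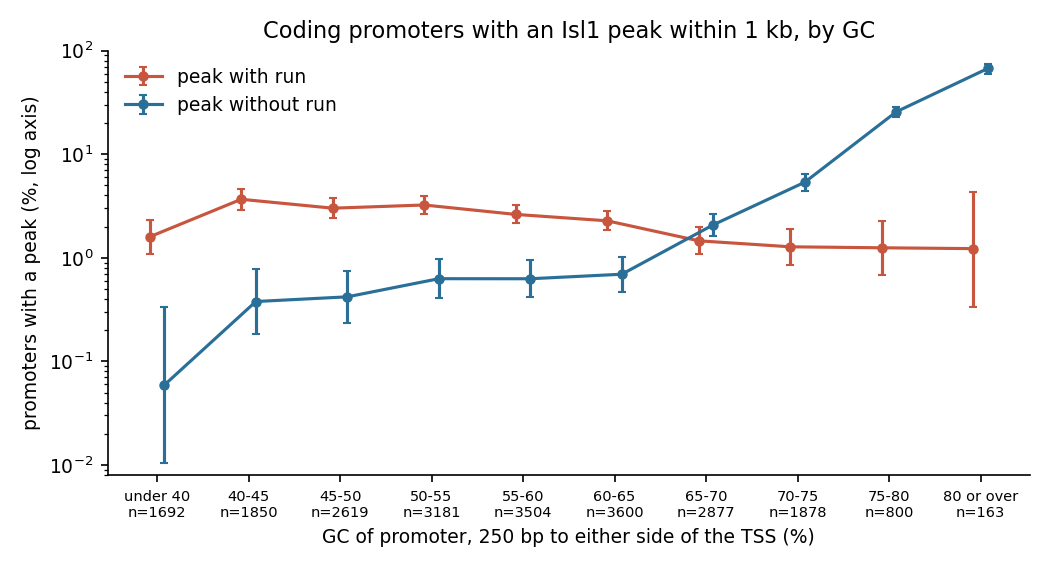
Share of protein-coding promoters with an Isl1 peak midpoint within 1 kb (vertical axis, in %, log scale) by the GC content of the promoter (horizontal axis, in %, with the number of promoters n under each step), for peaks with a run (red) and without (blue); bars are 95% Wilson intervals. The share with a runless peak goes from 0.0591% below 40% GC to 67.5% at 80% or above.

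A rise with GC was also found more than 1 kb from any protein-coding TSS. Places near the TSS of a noncoding transcript were not taken out there, and 11 of the 133 peaks near such TSSs had at least 75% GC. The genome was divided into tiles of 500 bp, a step added after the values had been seen, and the share of tiles that held the midpoint of a runless peak was counted. Of tiles with 75 to 80% GC, 251 of 1475 within 1 kb of a protein-coding TSS held one (17.0%, interval 15.2 to 19.0%), as did 33 of 184 further away (17.9%, 13.1 to 24.1%). At 80% GC or above the shares were 63.0% of 305 tiles near a TSS (57.4 to 68.2%) and 60% of 30 tiles elsewhere (42.3 to 75.4%). In both steps the intervals of near and far tiles overlapped. Below these steps they did not all do so. Of tiles with 65 to 70% GC, 0.574% near a TSS held a runless peak (0.405 to 0.814%), against 2.04% elsewhere (1.59 to 2.61%). The part of GC content in the runless peaks at promoters was not tested beyond these shares.

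Runs near a TSS were covered by a peak as often as runs 1 to 10 kb away and a little less often than runs further out. Of the 2953 runs of at least 50 bp within 1 kb of a protein-coding TSS, 815 overlapped an Isl1 peak (27.6%, interval 26.0 to 29.2%). At 1 to 10 kb the share was 27.1% (26.6 to 27.7%), at 10 to 100 kb 30.0% (29.7 to 30.3%), and beyond 100 kb 32.9% (32.6 to 33.3%). The length of the run moved the share much more. Within 1 kb it was 3.83% for runs of 25 to 49 bp (3.41 to 4.29%), 20.2% for 50 to 99 bp (18.6 to 21.99%) and 47.4% for 100 bp or longer (44.0 to 50.9%). Upstream and downstream of the TSS, 27.6% and 27.5% of the runs of at least 50 bp were covered, out of 1846 and 1107 runs. More such runs lay upstream of a TSS than downstream, as did more of the promoter peaks with a run.

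**Figure D4:**
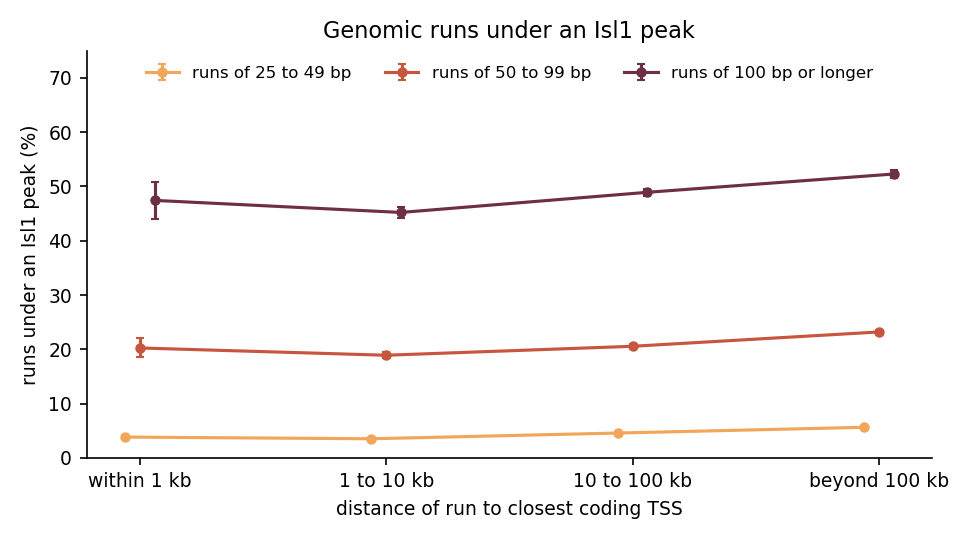
Share of uninterrupted purine or pyrimidine runs in the genome that overlap an Isl1 peak (vertical axis, in %) by distance of the run to the closest protein-coding TSS (horizontal axis), for runs of 25 to 49 bp (orange), 50 to 99 bp (red) and 100 bp or longer (purple); bars are 95% Wilson intervals. Length separates the lines, from 3.83% to 47.4% within 1 kb, and distance moves each line less, the shortest runs from 3.51% at 1 to 10 kb to 5.63% beyond 100 kb.

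The strand of the run relative to the gene differed with the side of the TSS. Among 515 promoter peaks with a run and a known gene strand, the pyrimidines lay on the coding strand of the gene in 251 (48.7%, interval 44.5 to 53.1%). Upstream of the TSS the share was 42.7% of 344 (37.6 to 48.0%) and downstream 60.8% of 171 (53.3 to 67.8%). For every genomic run of 25 bp or longer within 1 kb of a TSS, the same shares were 48.4% upstream (47.2 to 49.7%) and 58.3% downstream (56.8 to 59.8%). Upstream, the share under peaks minus that among genomic runs was -5.68 percentage points (interval of the difference, from -10.95 to -0.254, without 0). Downstream the difference was 2.51 points (from -5.11 to 9.67). These intervals treat the sets as independent, but the genomic runs include those under peaks. The sets also differ in length. Of the genomic runs, 7342 were 25 to 49 bp long, whereas the longest runs of the peaks had a median of 93 bp. Whether the upstream difference holds between separate sets of runs of like length was not tested. Measured over the whole peak, the longest runs were 672 bp at the uncharacterized gene E330021D16Rik, 446 bp at the protease gene Prss39 and 440 bp at Hilpda, a gene of lipid droplets induced by hypoxia. The median of this measure over the 521 peaks was 93 bp, against 110 bp at 1 to 10 kb and 114 bp beyond 10 kb.

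Short motifs were counted in 200 bp around the midpoint, on both strands, and set beside windows of the same size centred on the TSS of all 22164 promoters. TAAT, the core of homeodomain sites, was present in 32.2% of promoter peaks with a run (interval 28.4 to 36.4%) and in 33.7% of all promoters (33.1 to 34.3%). In runless promoter peaks it was present in 4.23% (2.88 to 6.17%), and in promoters with at least 75% GC in 3.95% (2.89 to 5.37%). The longer form CTAATG, which contains TAAT, was present in 3.84% of peaks with a run, 1.02% of runless peaks and 3.41% of all promoters. GGGCGG, the GC box, was present in 85.1% of runless peaks (82.0 to 87.8%), in 89.6% of promoters with at least 75% GC (87.5 to 91.4%) and in 40.5% of all promoters. CGGCGG was present in 88.5% of runless peaks (85.7 to 90.8%), in 86.2% of these GC-rich promoters and in 23.9% of all promoters. CCAAT, the CCAAT box, was present in 3.89% of runless peaks (2.61 to 5.77%) and in 9.97% of the GC-rich promoters (8.23 to 12.02%). These windows differ in place and GC, so the values do not show a lack of the motif under peaks. The runless midpoints lay at a median of 96 bp downstream of the TSS, with a median GC of 79.8%. Of the 963 GC-rich promoters, 800 had 75 to 80% GC. For TAAT the intervals of peaks and of the promoters beside them overlapped in both cases. A match of so short a motif shows only that the letters occur in the window.

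Of 21031 protein-coding genes in RefSeq, 1082 (5.14%) had a promoter peak. A promoter peak with a run was found at 511 of them (2.43%) and one without a run at 580 (2.76%). Genes with a promoter peak were counted in 33 lists. Over the 11 lists of cardiac, chromatin, muscle, channel and signaling genes, 63 of 501 genes (12.6%, interval 9.95 to 15.8%) had one, and 50 of the 63 had a runless one. Over 6 lists of constitutive genes, namely cytoplasmic and mitochondrial ribosomal proteins, respiratory chain subunits, tRNA synthetases, splicing factors and proteasome subunits, 4 of 420 genes had one (0.952%, 0.371 to 2.42%). These intervals do not overlap, and one lies above and the other below the share over all genes. The median promoter GC was 64% for the regulatory and muscle lists and 59.6% for the constitutive lists. Of all genes with a promoter GC of at least 75%, 33.2% had a promoter peak (30.2 to 36.2%), against 3.92% of genes below 75%. Median GC did not order the lists by their share. The constitutive lists lay above the 58.4% of all genes in GC, and Hox genes, with a share of 17.9%, lay at 57.4%. Below 75% GC, a peak was found at 9 of 59 heart transcription factors and 10 of 65 histone modifiers. In the same range it was found at 1 of 34 Fgf pathway genes and 2 of 50 sarcomere genes. How much of the difference between lists goes with GC was not tested.

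**Figure D5:**
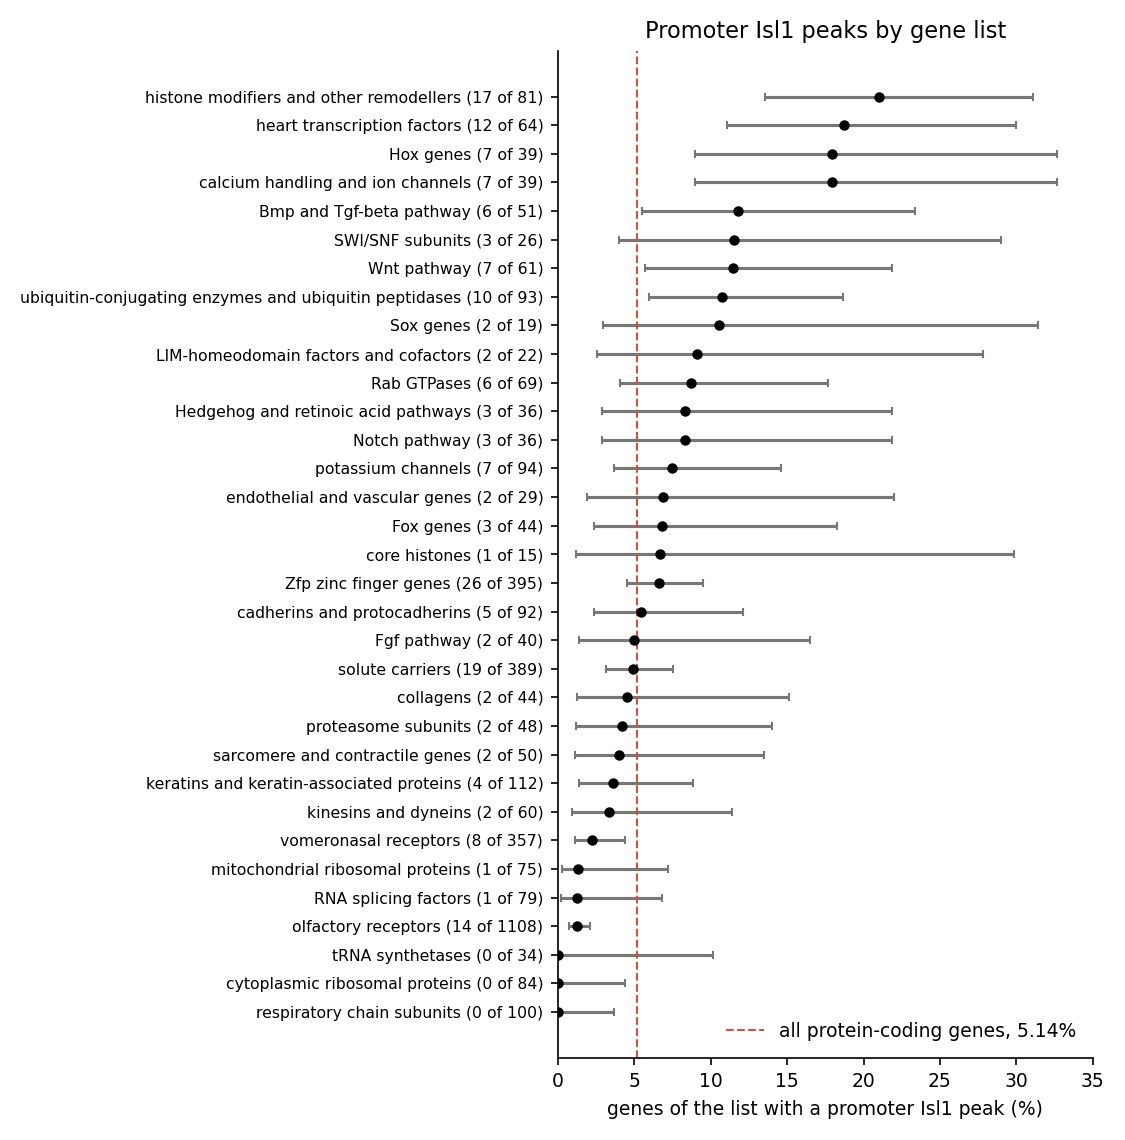
Share of the genes of each of 33 lists with a promoter Isl1 peak (horizontal axis, in %), with the counts beside the name of each list; points are shares, bars 95% Wilson intervals and the dashed line the share over all protein-coding genes, 5.14%. Histone modifiers, heart transcription factors, Hox genes and calcium handling genes lie highest, and ribosomal, respiratory chain and tRNA synthetase genes lie at or near 0.

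Histone modifiers and chromatin remodellers had the highest share of the 33 lists, 17 of 81 genes (21.0%, interval 13.5 to 31.1%, which overlaps those of the next lists), and 16 of the 17 had a runless peak. They included 4 chromodomain helicases (Chd1, Chd3, Chd5 and Chd7) and the Polycomb proteins Bmi1, Cbx2, Phc1, Phc2 and Jarid2. Others with a promoter peak were the acetyltransferase Crebbp, the deacetylase Hdac4 and the DNA methyltransferase Dnmt3a. The histone methyltransferases Ehmt1 and Setd1a, the demethylase Kdm2b and the NURF subunit Bptf also had one. The Crebbp peak, on chromosome 16 from 4213177 to 4213879, lay 124 bp upstream of the TSS at 83% GC. The Kdm2b peak lay in an intron 433 bp downstream, the Dnmt3a peak in an intron 630 bp downstream, and the Bmi1 peak 490 bp upstream, 839 bp wide. Of the 16 listed genes with a promoter GC of at least 75%, 7 had a peak, and of the other 65, 10 did. Among SWI/SNF subunits, the ATP-dependent remodelling complex, 3 of 26 genes had a promoter peak (11.5%, 4.00 to 29.0%). They were Arid2, Bcl7a and Smarcc2, each with a runless peak. The interval of this list includes the share over all genes, 5.14%.

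Of the 64 heart transcription factors listed, 12 had a promoter peak (18.8%, interval 11.1 to 30.0%), 8 of them with a runless peak only. Hand2, a bHLH factor of the right ventricle, had its peak in a UTR 916 bp downstream of the TSS. Tbx2, a repressor of chamber genes in the atrioventricular canal, had a peak 713 bp wide, on chromosome 11 from 85646216 to 85646929, in a UTR 455 bp downstream. The peaks of Six2, Tead1 and Zfpm1 likewise lay in UTRs, 116, 229 and 299 bp downstream, at 75.4, 78.2 and 81% GC. Upstream lay the runless peaks of Hey1 (322 bp), Pbx3 (148 bp) and the orphan nuclear receptor gene Nr2f2 (640 bp). Runs were present at Shox2 (69 bp long, 362 bp upstream) and at Meis2 (45 bp, 85 bp upstream). Nr2f1 was a mixed case, with a run of 40 bp in CpG-rich sequence of 77.2% GC. Besides the promoter peak, Nr2f1 had 38 further peaks and Nr2f2 24, whereas Hand2 had none. The list also holds Isl1 itself, Nkx2-5, Gata4, Mef2c, Tbx5 and Tbx20, and none of these had a promoter peak.

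Among LIM-homeodomain factors and cofactors, 2 of 22 had a promoter peak (9.09%, interval 2.53 to 27.8%, which includes the share over all genes). Lhx9, a LIM-homeodomain gene, had 2. One lay in an intron 143 bp upstream over a purine run of 138 bp and the other in a UTR 388 bp downstream with no run at its midpoint, and both windows held TAAT. Ssbp2, which binds Ldb proteins, had a runless peak in an intron 490 bp downstream. Of 39 Hox genes 7 had a promoter peak (17.9%, 8.98 to 32.7%). At Hoxa13, Hoxb6, Hoxc4, Hoxc8 and Hoxd3 it lay upstream over a run, and at Hoxa4 and Hoxd8 it was runless. Sox genes had 2 of 19 (Sox13 and Sox30) and Fox genes 3 of 44 (Foxe1, Foxk2 and Foxn2), both with intervals that include the share over all genes.

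Genes of calcium handling and cardiac ion channels had a promoter peak in 7 of 39 cases (17.9%, interval 8.98 to 32.7%), 6 of them runless. Atp2a2 had one 111 bp upstream, on chromosome 5 from 122952148 to 122952542. The pore subunits of L-type calcium channels Cacna1c and Cacna1d had peaks 197 and 174 bp upstream, and Gjc1, a connexin of the early heart, a peak 820 bp wide in a UTR 132 bp downstream. Calm2, a calmodulin gene, had a peak in an intron 662 bp downstream, and Cacnb2 the one with a run. Among sarcomere and contractile genes, a promoter peak was found at 2 of 50 (4%, 1.10 to 13.5%, which includes the share over all genes). Both peaks held a run. Of all 1082 genes with a promoter peak, 511 had one with a run, so 2 genes do not set this list apart. The place of this list against all genes depended on the distance limit: with 2000 bp, 7 of the 50 had a peak (14%, 6.95 to 26.2%), against 8.06% of all genes. Csrp3 had one of 63 bp 836 bp upstream, and Myom2, an M-band protein, one in an intron 415 bp downstream that filled the 200 bp searched and measured 245 bp over the whole peak, with 13 further peaks assigned to the gene. No promoter of this list reached 75% GC.

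In the Wnt pathway 7 of 61 genes had a promoter peak (11.5%, interval 5.67 to 21.8%). Runless peaks were found at the ligand gene Wnt9a (34 bp upstream), the receptor genes Fzd3 (321 bp downstream) and Ryk (125 bp downstream), the transducers Dvl1 (206 bp downstream) and Ctnnb1, the gene of beta-catenin (143 bp downstream), and the nuclear effector Tcf7 (271 bp upstream). The agonist Rspo3 had a peak over a run 880 bp upstream. In the Bmp and Tgf-beta pathway 6 of 51 genes had one (11.8%, 5.51 to 23.4%). The transducers Smad4 and Smad5, the ubiquitin ligase Smurf1 and the activin subunit Inhbb had runless peaks, and the ligand Gdf3 and the Bmp antagonist Nog had runs of 109 and 65 bp. In the Notch pathway the ligand Jag2, the DNA-binding factor Rbpj and the target Hey1 had peaks out of 36 genes. Jag2 had 2, at 59 bp upstream and 734 bp downstream, both runless. In the Fgf pathway the inhibitors Spred1 and Spred2 had them out of 40, and in the Hedgehog and retinoic acid pathways Gas1, Gli3 and Rxra out of 36. The last 3 pathways had shares of 8.33, 5 and 8.33%, with intervals that include the share over all genes.

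Among the remaining lists, ubiquitin-conjugating enzymes and ubiquitin peptidases had 10 of 93 genes with a promoter peak (10.8%, interval 5.95 to 18.7%), 9 of them runless. Zfp zinc finger genes had 26 of 395 (6.58%), solute carriers 19 of 389 (4.88%), potassium channels 7 of 94 (7.45%), Rab GTPases 6 of 69 (8.70%), cadherins and protocadherins 5 of 92 (5.43%) and keratins with their associated proteins 4 of 112 (3.57%). Endothelial and vascular genes had 2 of 29 (Plxnd1 and Robo4), collagens 2 of 44, kinesins and dyneins 2 of 60 and core histones 1 of the 15 that could be matched by symbol. Apart from the ubiquitin list, the intervals of these lists include the share over all genes. The 5 cadherin genes, all 4 keratin genes and 13 of the 19 solute carriers had a promoter peak with a run. Of all 1082 genes with a promoter peak, 511 had one with a run and 580 one without. Whether these small lists differ from that was not tested.
Chemosensory receptors lay below the background. Of 1108 olfactory receptor genes 14 had one (1.26%, 0.754 to 2.11%), and of 357 vomeronasal receptor genes 8 (2.24%, upper bound 4.36%). All but 1 of these 22 genes had a run, and the median promoter GC was 38.8 and 37.6%.
Of the constitutive genes, none of 84 cytoplasmic ribosomal protein genes, 100 respiratory chain genes and 34 tRNA synthetase genes had a promoter peak. Taken as 3 counts of the total, the limit that a count of 0 allows was 3.57, 3 and 8.82%, and the Wilson upper bounds were 4.37, 3.70 and 10.2%. One mitochondrial ribosomal protein gene of 75 (Mrpl3), 1 splicing factor of 79 (Hnrnpu) and 2 proteasome genes of 48 (Psmc3 and Psme4) had one. Their median promoter GC was between 59.1 and 61% in each of the 6 lists, above the 58.4% of all genes, and 5 of their promoters reached 75%. None of these 5 had a peak.

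Most genes had 1 promoter peak. Only 21 had 2, and Duxbl2 had 3, each 410 to 466 bp upstream of a TSS on chromosome 14. The 3 Duxbl2 peaks stand at 3 places of chromosome 14, about the near-identical copies of this gene, and cannot be told apart from 1 binding site whose reads map to several copies. In 9 genes a peak with a run and a runless peak were both present. Ppp2cb, a phosphatase subunit, had a peak 631 bp upstream over a run and a peak without a run 103 bp downstream, and Gbx1, a homeobox gene, had one 789 bp upstream over a run of 80 bp and a runless one 136 bp downstream. Further peaks were common at genes with a promoter peak, but peaks were common at other genes too. Without a promoter peak, 9994 genes had at least 1 peak, with a median of 2 peaks. These 9994 were not restricted to the 21031 protein-coding genes counted in RefSeq. Of 506 genes with runs only at the promoter, 67.6% had at least 1 further peak assigned, and of 574 genes with runless promoter peaks only, 65.7% did, with a median of 1 further peak in both. Genes with no further peak count in this median, so it cannot be compared with the median of 2 above. No other peak in the list was assigned to 364 genes (33.4% of all with a promoter peak).

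The 10 peaks closest to the TSS had their midpoint 1 to 4 bp from it. They belonged to Dip2a, Fgd5, Trim44, Vps54, Fndc5, Shisa6, Zfp608, Mier3, Unc5a and Unkl. Of these 8 were runless and CpG-rich, Unkl was runless with 63.4% GC, and Zfp608 held a run of 119 bp and had 33 further peaks. At the other end of the rule, the 5 peaks just inside the limit lay 994 to 999 bp from the TSS of Lypd8, Sorl1, Tmem163, Katna1 and Tnmd, with widths of 377 to 809 bp. The 5 just outside lay 1002 to 1009 bp from the TSS of Tmem255a, Olfr557, Nnmt, Samd14 and Areg, with widths of 324 to 523 bp. All 10 held a run, of at least 46 bp.

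A small group of 23 promoter peaks had neither a run at the midpoint nor CpG-rich sequence, and was singled out after the values had been seen. In 15 of them a run of at least 25 bp lay elsewhere within the peak, as at Nfix, a transcription factor gene whose peak was 1049 bp wide with a run of 86 bp. The other 8 had no such run anywhere in the peak. They belonged to Cyp11a1, Lbx2, Paip1, Polr3gl, Rab27a, Taf9b, Trpc5os and Unkl. TAAT was present within 100 bp of the midpoint at 9 of the 23.

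By chromosome, the number of promoter peaks per 100 annotated protein-coding genes ran from 3.79 on chromosome 14 to 6.76 on chromosome 13 among the autosomes, and was 3.88 on the X chromosome.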

How the data were processed

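Reads were aligned by the authors with Bowtie2 (mm9) and deduplicated with Picard 1.136. MACS called the peaks, blacklisted regions were dropped, and annotatePeaks.pl gave every peak its nearest TSS. The deposited columns are chromosome, start, end, distance to the TSS, RefSeq number and symbol. It holds no counts, signal or p-values. The study gives the ChIP-Seq as replicated and describes intersecting replicate peaks, without saying whether this list is such an intersection. A repeated header line was dropped. The midpoint of each peak was used throughout, and negative distances are upstream.

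Sequences were read from the mm9 genome (NCBIM37) with pysam 0.24.0 and samtools 1.23.1, exons and strands from GENCODE, and gene names from the RefSeq table of GRCm38.p6, of which no coordinates were used. Of the 1112 peaks, 1076 accessions matched that table, and the others were matched by symbol. Strands came from the gene name for 1034 peaks and from the implied TSS for 67, and 11 stayed open. Shares carry 95% Wilson intervals, and differences of shares an interval built from their bounds. No test was made, since there is 1 list. The functions were tested on simulated sequences.

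The members and the gene lists were chosen with earlier results of these data known. Genes named were those of the cardiac, chromatin, muscle, channel and signaling lists, the 10 closest and 10 widest peaks, the longest runs, genes with 3 peaks and the peaks beside the limit. GC could be given for under 80% of the cadherin list, so that check is void there. Alternatives were distance limits of 500 and 2000 bp, other run lengths, windows and CpG limits, GENCODE TSSs and wide peaks only. The expression and accessibility changes in the tables of the study were not used here. Some genes of the lists are counted but not reported here by name.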

Additional observations from a re-analysis of the deposited data

How the results depend on the processing

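No paired analysis was possible because there is 1 peak list and no test. A limit of 500 bp gave 722 promoter peaks in 712 genes and a limit of 2000 bp 1788 in 1713, and the shares followed: 42.1 and 53.0% lay upstream, 27.8 and 64.7% held a run, 74.7 and 34.8% were CpG-rich, and 118 and 287 listed genes had a promoter peak against 185 of 3857. Against the share over all genes, which was 8.06% at 2000 bp, sarcomere genes (14%), solute carriers (8.48%) and kinesins and dyneins (8.33%) turned from below to above at that limit, and potassium channels (7.45%), cadherins (7.61%) and core histones (6.67%) from above to below. At 500 bp, where it was 3.37%, cadherins (1.09%) and potassium channels (3.19%) turned to below and proteasome subunits (4.17%) to above. The median width was 507 bp at 500 bp. Peaks wider than the median of all peaks numbered 641 in 633 genes, 37.0% with a run. A run of at least 40 bp was present in 43.9% of promoter peaks, one of at least 15 bp in 50.5%, one of 25 bp anywhere in the peak in 50.6%, and, with the closest GENCODE TSS, one of 25 bp in 53.4% of 1325 peaks. Without the peaks that span the TSS, 56.0% lay upstream. With a run only, 67.0% lay upstream and the median width was 456 bp; without a run, 32.7%, 526 bp and 96 listed genes. The pyrimidine share was 42.7% upstream and 60.8% downstream. Of genomic runs near a TSS, 10.7% of those of at least 25 bp and 47.4% of those of at least 100 bp were under a peak. By construction, each of these settings counts other peaks or runs. The other 11 of 41 settings stayed within the interval or within 1.5 times the value. The unknown depth and the lack of peak heights and replicates limit all counts to what the authors' threshold passed.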
